A study of Mus musculus with 8 samples.

Results

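The 10 genes described here are the Wnt receptors Fzd1 to Fzd8 (the Frizzled proteins) and their co-receptors Lrp5 and Lrp6. They were chosen by gene family and found in the tables by gene symbol, as 10 of 37620 measured genes. Transcripts were sequenced in 8 libraries of mouse small intestinal epithelium sorted by flow cytometry: 4 biological replicates of CD24Mid cells (numbered 1, 3, 5 and 7), which carry an intermediate amount of the surface protein CD24, and 4 of CD24Neg cells (numbered 2, 4, 6 and 8), which lack it. In both groups, cells that carry the leukocyte protein CD45 or bind the lectin Ulex europaeus agglutinin I were depleted, and no treatment was given. Strain, age, genotype and any pooling of the mice were not given in the sources used here.

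Frizzled proteins are multipass membrane receptors whose outer cysteine-rich domain binds secreted Wnt proteins. In the branch of the pathway that acts through beta-catenin, a Wnt joins a Frizzled to Lrp5 or Lrp6; Dishevelled and Axin are then drawn to the membrane, beta-catenin is no longer degraded, and it acts with TCF/LEF factors on target genes. Frizzled proteins also take part in branches that do not use beta-catenin, among them planar cell polarity. In the small intestine this signal keeps the stem cells of the crypt base dividing, and R-spondins strengthen it by protecting Frizzled and Lrp6 from removal at the cell surface.

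Each library held between 11340782 and 18928233 reads that matched 1 gene only. Genes encoded by the mitochondrial genome took 8.03% to 9.17% of these reads in CD24Mid and 27.7% to 37.0% in CD24Neg. Values are therefore given as CPM, gene-unique counts per fixed library size, after scaling by trimmed mean of M values (TMM), which sets the libraries on a common scale through the genes that differ least. Cd24a, which encodes the sorted protein, was 6.81-fold higher in CD24Mid, at 194 ± 43.4 CPM against 28.6 ± 8.37 CPM (SD, n = 4 each, as for every mean here). The 4 stem cell markers summed to 2936 to 3885 CPM in CD24Mid and 89.8 to 319 CPM in CD24Neg libraries, while the 7 enterocyte markers summed to 322 to 665 CPM in CD24Mid and 18747 to 32867 CPM in CD24Neg. The 7 epithelial markers summed to 6993 to 9432 CPM in CD24Mid and 10892 to 13250 CPM in CD24Neg. Among them Epcam, an epithelial adhesion protein, stood at 1300 ± 124 and 1378 ± 61.9 CPM. In the test described below, Vil1, Cldn7 and Krt8 were higher in CD24Neg and Krt18 was higher in CD24Mid. Epcam, Cdh1 and Krt19 did not pass. The 6 goblet cell markers summed to 3191 to 4594 CPM in CD24Mid and 9487 to 26589 CPM in CD24Neg, and the 6 enteroendocrine markers to 265 to 786 and 74.0 to 115 CPM. By the test described below, 4 goblet markers were higher in CD24Neg and 4 enteroendocrine markers higher in CD24Mid. The others of these 2 lists (Agr2, Spink4, Sct and Cck) did not pass.

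Markers of immune cells were found in both groups. Those of B and plasma cells and those of T and NK lymphocytes moved in opposite directions. The 5 B and plasma cell markers summed to 393 to 1008 CPM in CD24Mid and 21.9 to 53.2 CPM in CD24Neg, mostly from Jchain and Igkc, and the 4 that could be tested were higher in CD24Mid, as were 6 of the receptors. The 7 T and NK lymphocyte markers summed to 18.0, 6.46, 7.99 and 17.2 CPM in CD24Mid replicates 1, 3, 5 and 7, and to 521, 29.9, 84.0 and 391.9 CPM in CD24Neg replicates 2, 4, 6 and 8. The 5 myeloid markers summed to 20.8 to 35.0 CPM in CD24Mid and 12.1 to 25.3 CPM in CD24Neg. Of these, Lyz2 and Csf1r were called as higher in CD24Mid, Cd68 and Itgam did not pass, and Adgre1 was not tested. The part of goblet, enteroendocrine, B and plasma cell, lymphocyte and myeloid content in the results on the receptors was not tested. Results are also given without CD24Neg replicates 2 and 8, where the T and NK lymphocyte markers are highest.

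Of the 10 genes, 6 were higher in CD24Mid (Fzd1, Fzd2, Fzd5, Fzd6, Fzd7 and Lrp5), 1 was higher in CD24Neg (Fzd4), 2 did not pass the test (Fzd8 and Lrp6), and Fzd3 had too few reads to be tested. The test was edgeR's quasi-likelihood test on 12840 genes, with p adjusted by Benjamini-Hochberg and called under 0.05. In that test 69.8% of all genes were called in either direction, 35.5% as higher in CD24Mid and 34.3% as higher in CD24Neg, so a call by itself does not set a receptor apart from other genes. The groups did not overlap for 7 of the 9 receptors tested, against 64.4% of all genes tested. The median log2 fold change (CD24Mid over CD24Neg, positive where CD24Mid is higher) was 0.46 over the 9 receptors tested and 0.02 over all genes. The same 6 and 1 receptors were counted as higher in CD24Mid and in CD24Neg without CD24Neg replicates 2 and 8. In sorted populations measured in bulk, fewer cells that hold a transcript and less transcript per cell cannot be told apart.

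Fzd5 was the most abundant Frizzled in both populations, and Lrp5 the second most abundant of the 10 genes. To compare genes with each other, CPM was divided by the effective length of each gene in kilobases. On that scale Fzd5 was at 51.2 ± 4.14 in CD24Mid and 37.3 ± 4.11 CPM per kilobase in CD24Neg, which placed its level above 87.2% and 78.4% of the genes tested. In CD24Mid the levels then ran, in CPM per kilobase, through Lrp5 (30.0 ± 2.28), Lrp6 (11.7 ± 2.76), Fzd7 (8.42 ± 0.957), Fzd6 (2.85 ± 0.131), Fzd1 (2.51 ± 0.444), Fzd2 (2.48 ± 0.481), Fzd4 (1.1995 ± 0.192) and Fzd8 (1.15 ± 0.161) to Fzd3 (0.0611 ± 0.0237). The libraries' ranges overlapped between the neighbours Lrp6 and Fzd7, Fzd6 and Fzd1, Fzd1 and Fzd2, and Fzd4 and Fzd8.

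Fzd4 moved from the eighth place in CD24Mid to the fourth in CD24Neg, and Fzd2 from the seventh to the ninth. The levels in CD24Neg, in CPM per kilobase, ran from Fzd5 through Lrp5 (21.9 ± 0.965), Lrp6 (12.5 ± 1.02), Fzd4 (3.69 ± 0.954), Fzd7 (3.19 ± 0.432), Fzd1 (1.39 ± 0.113), Fzd8 (1.09 ± 0.276), Fzd6 (0.941 ± 0.434) and Fzd2 (0.0653 ± 0.0467) to Fzd3 (0.00841 ± 0.0168). Here the neighbours Fzd4 and Fzd7, Fzd1 and Fzd8, Fzd8 and Fzd6, and Fzd2 and Fzd3 overlapped. The plot of levels by library shows this order, with Fzd5 on top in each of the 8 libraries.

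**Figure D1:**
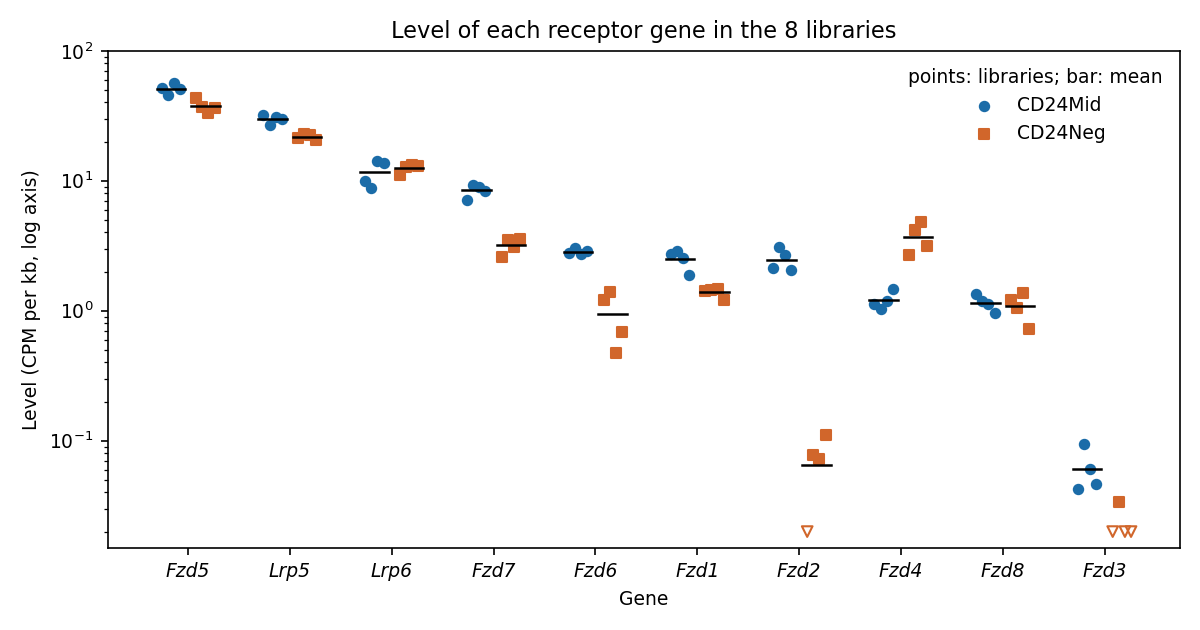
Level of each Frizzled and Lrp gene in each library, in CPM per kilobase of effective length on a log axis, with circles for the 4 CD24Mid libraries, squares for the 4 CD24Neg libraries, black bars for the group means and open triangles at the bottom for libraries with 0 reads. Fzd5 lies highest in both groups, Fzd4 is the receptor whose CD24Neg values all lie above its CD24Mid values, and Fzd2 and Fzd3 are close to or at 0 in CD24Neg.

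Of the summed Frizzled level, Fzd5 made up 73.2% ± 2.69 in CD24Mid and 78.1% ± 3.59 in CD24Neg. Fzd7 made up 12.1% ± 1.46 in CD24Mid and 6.73% ± 1.19 in CD24Neg. The shares of Fzd6 (3.63% to 4.55% against 1.06% to 2.91%) and Fzd2 (3.001% to 4.61% against 0% to 0.241%) were also greater in CD24Mid. Fzd4 went the other way, with 1.72% ± 0.292 in CD24Mid and 7.84% ± 2.41 in CD24Neg. The groups did not overlap in the shares of Fzd2, Fzd4, Fzd6 and Fzd7, and they did in those of Fzd1, Fzd3, Fzd8 and Fzd5 (69.2% to 75.1% against 74.6% to 82.5%). In CPM, 64.4% of all genes tested did not overlap, so separation by itself does not set these receptors apart. Shares of a common sum also do not vary independently of each other. These shares are within a library and so do not depend on how libraries are scaled to each other.

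The sum of all Frizzled levels was 69.8 ± 3.91 CPM per kilobase in CD24Mid and 47.7 ± 3.34 in CD24Neg, and without Fzd5 it was 18.7 ± 1.53 and 10.4 ± 1.29. The summed level of Lrp5 and Lrp6 was 41.7 ± 4.19 CPM per kilobase in CD24Mid and 34.4 ± 1.61 in CD24Neg. Frizzled transcripts thus outnumbered those of the co-receptors in every library, by a ratio of 1.55 to 1.87 in CD24Mid and 1.24 to 1.61 in CD24Neg.

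**Figure D2:**
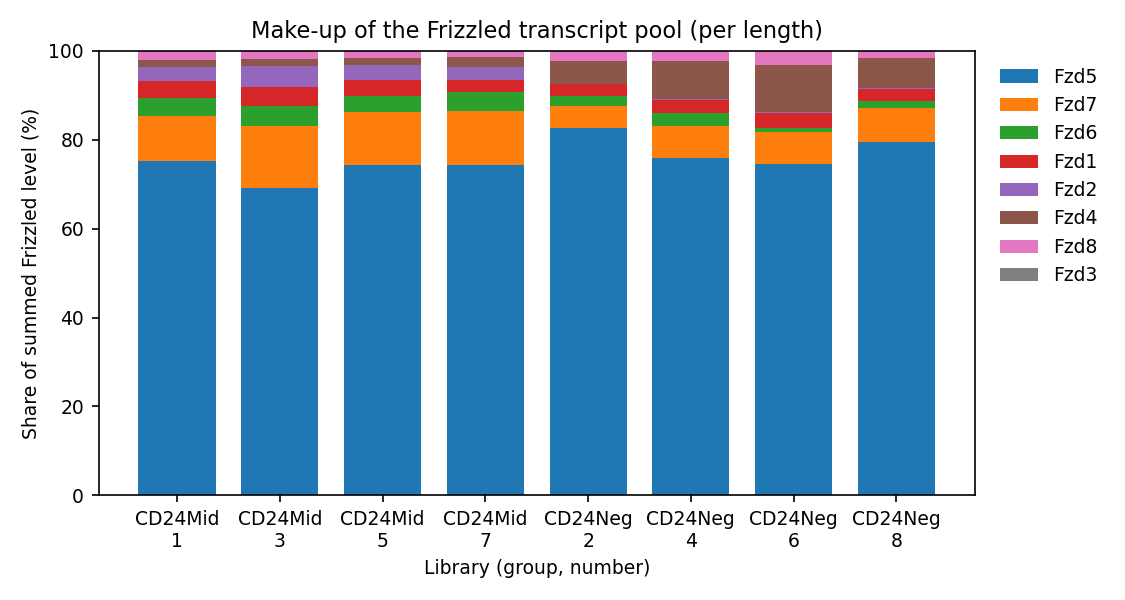
Share of each Frizzled gene in the summed Frizzled level (CPM per kilobase) of each library, in percent, as 1 stacked bar per library. Fzd5 fills 69.2% to 82.5% of every bar, the Fzd7 band is wider in the CD24Mid libraries and the Fzd4 band is wider in the CD24Neg libraries.

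The upstream sequences of Fzd5, Fzd7 and Fzd4 are shown because, of the 4 receptors matched to a RefSeq entry, Fzd5 was the most abundant and the shares of Fzd7 and Fzd4 differed in opposite directions. Each is the 250 bases before the annotated start in RefSeq (build GRCm38.p6), 5′ to 3′ on the gene's own strand: chr1:64737751-64738000 on the minus strand for Fzd5, chr1:59481897-59482146 on the plus strand for Fzd7, and chr7:89404116-89404365 on the plus strand for Fzd4. Capitals mark the letters of a GC box (GGGCGG, the letters read by Sp1-type factors) or a TCF/LEF match (CTTTG followed by AA, AT, TA or TT) on either strand, and no GC box overlaps the TCF/LEF match.
Fzd5: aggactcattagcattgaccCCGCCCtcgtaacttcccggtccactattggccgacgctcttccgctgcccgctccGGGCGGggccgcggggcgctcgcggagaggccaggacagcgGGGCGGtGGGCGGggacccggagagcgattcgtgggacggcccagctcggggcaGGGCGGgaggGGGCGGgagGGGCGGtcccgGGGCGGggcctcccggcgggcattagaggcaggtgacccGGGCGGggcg
Fzd7: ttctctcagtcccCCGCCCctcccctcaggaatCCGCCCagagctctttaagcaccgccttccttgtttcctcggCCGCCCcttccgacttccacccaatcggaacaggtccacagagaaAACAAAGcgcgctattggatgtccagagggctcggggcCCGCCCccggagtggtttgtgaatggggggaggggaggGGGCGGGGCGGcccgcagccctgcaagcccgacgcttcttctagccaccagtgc
Fzd4: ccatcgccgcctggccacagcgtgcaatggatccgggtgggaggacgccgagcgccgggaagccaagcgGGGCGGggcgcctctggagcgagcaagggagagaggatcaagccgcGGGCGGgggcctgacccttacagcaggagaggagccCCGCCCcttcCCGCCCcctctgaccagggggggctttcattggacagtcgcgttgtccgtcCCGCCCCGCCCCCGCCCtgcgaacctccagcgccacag

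The Fzd5 window held 9 GC boxes, the Fzd7 window 6 and the Fzd4 window 7, some of which overlap each other. A GC box was found in 32.7% of all 32851 RefSeq windows of this length. The Fzd7 window alone of these 3 held TCF/LEF letters, once, on the opposite strand (AACAAAG), 130 bases before the start, and 14.8% of all windows held such a match. CG pairs numbered 32 in the Fzd5 window, 25 in Fzd4 and 17 in Fzd7, against a median of 6 over all windows. The sequence of Fzd1, the only other receptor matched, held 12 CG pairs, no GC box and no TCF/LEF letters, but a TATAAA match, found in 12.4% of all windows. These are matches of letters, and binding was not measured here.

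Fzd5 is the receptor whose loss from the gut epithelium is known to affect Paneth cell maturation. It stood at 300, 266, 324 and 293 CPM in CD24Mid replicates 1, 3, 5 and 7, and at 249, 212, 192 and 211 CPM in CD24Neg replicates 2, 4, 6 and 8. The lowest CD24Mid library was above the highest CD24Neg library. The log2 fold change was 0.46 ± 0.12 (SE; edgeR adjusted p = 0.00453), the smallest in size of the 5 Frizzled genes called as higher in CD24Mid. The 5 Paneth markers summed to 95.02 to 221 CPM in CD24Mid and 76.5 to 272 CPM in CD24Neg. Of these, Mmp7 alone was called, as higher in CD24Mid. It was at 16.0 ± 1.77 against 3.63 ± 1.43 CPM (edgeR adjusted p = 1.43e-05), and the others did not pass.

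Fzd7, which has been described as a Wnt receptor of intestinal stem cells, was the most abundant Frizzled after Fzd5 in CD24Mid. Its values were 27.9, 36.2, 35.6 and 32.9 CPM in CD24Mid and 10.3, 13.8, 12.3 and 13.9 CPM in CD24Neg. Even the lowest CD24Mid library lay above the highest CD24Neg library. The log2 fold change was 1.40 ± 0.13 (edgeR adjusted p = 4.69e-06), a 2.64-fold difference.

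Within each library, the ratio of Fzd5 to Fzd7 reads was 10.7, 7.35, 9.12 and 8.90 in CD24Mid and 24.2, 15.4, 15.6 and 15.2 in CD24Neg. The balance between these 2 receptors was thus shifted toward Fzd7 in CD24Mid, with no overlap between the groups. The mean log2 ratio differed by -0.94 (CD24Mid minus CD24Neg; exact two-sided permutation test over libraries, p = 0.0286, adjusted over 2 ratios p = 0.0286, the smallest value that 4 against 4 allows). Leaving out any 1 library kept the direction, with differences from -1.03 to -0.78, though the smallest p such a test can give is then 0.0571. Ratios of other gene pairs were not computed, so how often they separate the groups is not known here. In CPM, 64.4% of all genes tested did not overlap between the groups.

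**Figure D3:**
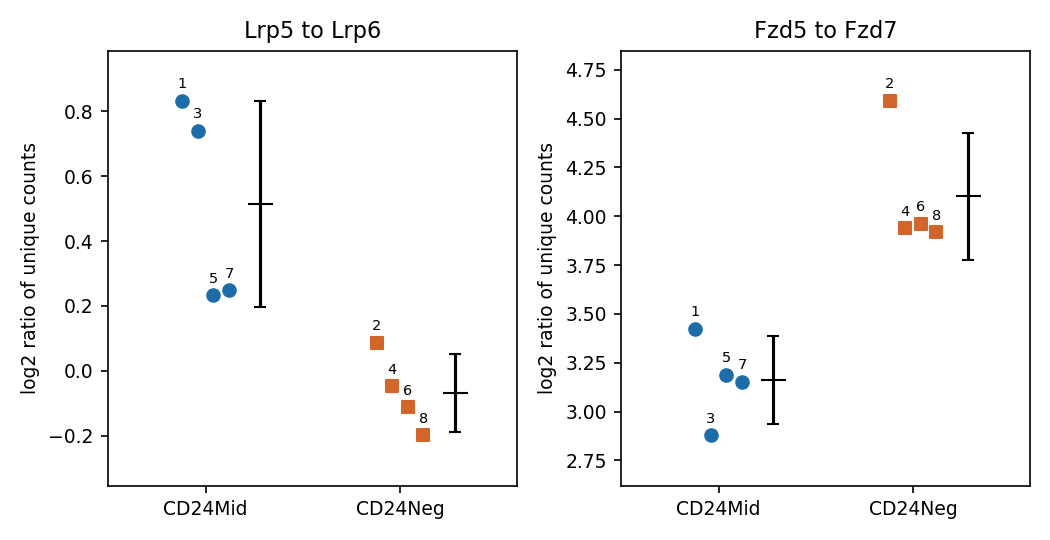
Log2 ratio of reads in each library for Lrp5 to Lrp6 and for Fzd5 to Fzd7, with points labelled by replicate number and bars for the mean ± SD of the 4 libraries of a group. The groups do not overlap for either ratio: Lrp5 to Lrp6 is higher in CD24Mid and Fzd5 to Fzd7 is higher in CD24Neg.

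Fzd2 showed the largest difference of the receptors. It had 131, 197, 191 and 152 reads in the CD24Mid libraries and 0, 2, 3 and 3 reads in the CD24Neg libraries. That is 7.40 ± 1.44 against 0.195 ± 0.140 CPM, with each CD24Neg library at or under 3 reads, the floor used here for a value near 0. The pooled read ratio, per normalised library size, was 36.3 (95% exact interval 18.3 to 84.5, which covers counting error only). The fitted log2 fold change was 5.14 ± 0.40 (edgeR adjusted p = 9.95e-07), and 19 genes, Fzd2 included, had one at least as large. Its level in CD24Mid was nonetheless modest, above that of 22.2% of genes tested.

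Fzd6, a receptor best known for planar cell polarity, and Fzd1 were both higher in CD24Mid at low levels. Fzd6 was at 9.36, 10.2, 9.24 and 9.65 CPM in CD24Mid and at 4.05, 4.75, 1.598 and 2.32 CPM in CD24Neg, a log2 fold change of 1.63 ± 0.29 (edgeR adjusted p = 0.000429). The CD24Mid libraries lay close together and the CD24Neg libraries were spread, with replicates 6 and 8 lowest. Fzd1 was at 9.89, 10.5, 9.29 and 6.80 CPM in CD24Mid and 5.19, 5.21, 5.30 and 4.42 CPM in CD24Neg, a log2 fold change of 0.85 ± 0.18 (edgeR adjusted p = 0.00127). Replicate 7 was lowest in CD24Mid and replicate 8 in CD24Neg, and the groups did not overlap. An annotated gene lies on the opposite strand across exons of Fzd5 (Gm38058) and of Fzd6 (Gm26704); neither was measured as a gene of its own here, and since no strand setting is stated, their reads cannot be told apart from those of the receptors.

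Fzd4 was the only receptor called as higher in CD24Neg. Outside the gut it is known as the receptor for Norrin in retinal vessels, and endothelium is a tissue in which it is abundant. It was at 3.39, 3.12, 3.597 and 4.47 CPM in CD24Mid and 8.11, 12.6, 14.5 and 9.61 CPM in CD24Neg. All CD24Neg libraries lay above all CD24Mid libraries, with replicates 4 and 6 highest. The log2 fold change was -1.63 ± 0.21 (edgeR adjusted p = 4.98e-05), a 3.09-fold difference, and it was -1.88 without CD24Neg replicates 2 and 8.

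Markers of other cell types stood as follows beside Fzd4. The 6 endothelial markers summed to 0.920 to 2.05 CPM in CD24Mid and to 2.66, 1.39, 1.598 and 3.97 CPM in CD24Neg replicates 2, 4, 6 and 8, with Emcn at 0 reads in all libraries. Pecam1, which alone had enough reads to be tested, did not pass. Tek (1 read in CD24Mid and 13 in CD24Neg) and Tie1 (1 and 7 reads) were not tested. Their CPM was higher in every CD24Neg library than in any CD24Mid library, the direction of Fzd4. For Tie1, CD24Mid replicate 1 and CD24Neg replicates 4 and 6 each held 1 read, so the separation depends on library scaling. Cdh5 (38 and 20 reads) and Kdr (4 and 4 reads), also not tested, overlapped between the groups. T and NK lymphocyte markers were lowest in CD24Neg replicates 4 and 6, at 29.9 and 84.0 CPM, and the enterocyte markers were highest there, at 29938 and 32867 CPM, against 18900 and 18747 CPM in replicates 2 and 8. Smooth muscle markers summed to 0.976 to 1.31 CPM in CD24Mid and 2.54 to 3.42 CPM in CD24Neg, mostly from Tagln. The part of endothelial, smooth muscle and enterocyte content in the Fzd4 difference was not tested.

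Fzd8 and Fzd3 were the least abundant receptors of CD24Mid. Fzd8 had 3.68, 3.25, 3.10 and 2.61 CPM in the CD24Mid libraries and 3.29, 2.89, 3.78 and 1.99 CPM in CD24Neg, with full overlap and a log2 fold change of 0.07 ± 0.24 (edgeR adjusted p = 0.801). Fzd3 had 3, 7, 5 and 4 reads in the CD24Mid libraries and 1 read in all of CD24Neg, in replicate 4. The pooled Fzd3 ratio was 8.23, with a 95% exact interval from 1.31 to 342, too wide to size a difference. With no filter on low counts edgeR gave an adjusted p of 0.0294 for Fzd3, and DESeq2 gave 0.0801.

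The co-receptors Lrp5 and Lrp6 are single-pass proteins whose inner tails bind Axin once phosphorylated. Lrp5 was at 127, 106, 121 and 119 CPM in CD24Mid and 84.6, 89.9, 88.8 and 81.7 CPM in CD24Neg. The groups were apart, and the log2 fold change of 0.46 ± 0.09 (edgeR adjusted p = 0.0013) was close to that of Fzd5. Lrp6 was at 71.6, 63.4, 103 and 100.01 CPM in CD24Mid and 79.7, 92.9, 96.1 and 93.8 CPM in CD24Neg. Its CD24Mid libraries fell on both sides of the CD24Neg libraries, 1 and 3 below and 5 and 7 above, and the log2 fold change was -0.10 ± 0.16 (edgeR adjusted p = 0.59).

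The ratio of Lrp5 to Lrp6 reads was 1.78, 1.67, 1.18 and 1.19 in CD24Mid and 1.06, 0.968, 0.924 and 0.871 in CD24Neg. All 4 CD24Mid ratios were above all 4 CD24Neg ratios, and CD24Mid replicates 5 and 7 were nearest to CD24Neg. The mean log2 ratio differed by 0.58 (exact two-sided permutation test, p = 0.0286, adjusted over 2 ratios p = 0.0286), and by 0.48 to 0.68 with any 1 library left out, each with p = 0.0571, the smallest then possible. Per kilobase, Lrp5 was above Lrp6 in all 8 libraries, by 2.16 to 3.27 times in CD24Mid and 1.598 to 1.95 times in CD24Neg. As for Fzd5 to Fzd7, ratios of other gene pairs were not computed for comparison.

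Lrp6 is a long transcript (effective length 7247 bases, against 3947 for Lrp5). Like Lrp6, long genes were lower in CD24Mid replicates 1 and 3 than in replicates 5 and 7. The 460 genes tested with an effective length over 6000 bases had median log2 deviations from their own means of -0.25 and -0.17 in CD24Mid replicates 1 and 3, 0.21 and 0.20 in replicates 5 and 7, and -0.17, 0.04, 0.07 and 0.09 in CD24Neg replicates 2, 4, 6 and 8. Their median log2 fold change was 0.25, against -0.03 for the 6249 genes under 2000 bases. The part of transcript length in the spread of Lrp6 and in the Lrp5 to Lrp6 ratio was not tested.

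Another scaling of the libraries changed the calls of Fzd8 and Lrp6 and not those of the 7 receptors that passed. Over all genes the median log2 fold change was 0.02 with TMM, 0.24 with upper-quartile scaling, 0.53 with totals without mitochondrial genes and 0.96 with unscaled totals. Called genes that were higher in CD24Mid made up 50.8%, 61.4%, 73.1% and 84.4% of all called under these 4 scalings. Lrp6 turned from -0.10 to 0.12, 0.42 and 0.85, and Fzd8 went from 0.07 to 0.59 with totals without mitochondrial genes and to 1.006 with unscaled totals; both passed the test with these last 2 scalings. Relative to the median of all genes under the same scaling, Lrp6 stayed between -0.12 and -0.11, Fzd8 between 0.05 and 0.06, and Fzd4 between -1.64 and -1.63. Fzd4 was higher in CD24Neg under all 4, at -0.69 with unscaled totals (edgeR adjusted p = 0.0171).

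**Figure D4:**
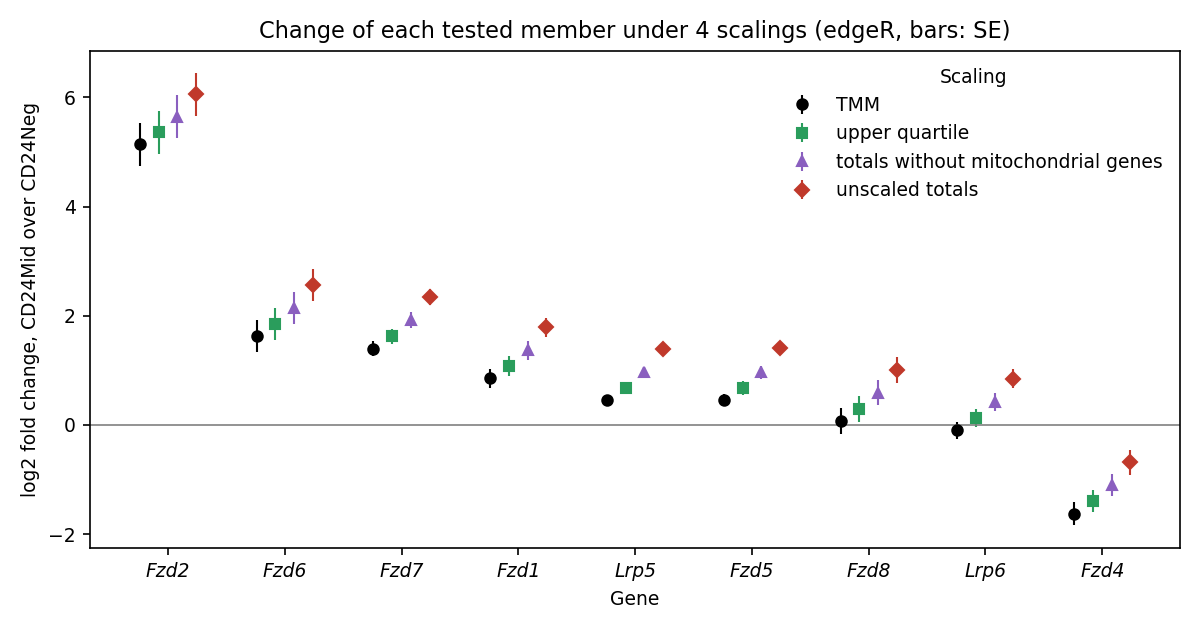
Log2 fold change (CD24Mid over CD24Neg) ± SE of each tested receptor under 4 ways to scale the libraries: TMM, upper quartile, totals without mitochondrial genes and unscaled totals. All receptors shift upward together from TMM to unscaled totals, Lrp6 crosses 0, and Fzd4 stays below 0 under each scaling.

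The genes closest in pattern to the 4 most abundant receptors were sought by the root mean square difference of log2 CPM, each gene centred on its own mean, over the 8 libraries and 9668 genes. Fzd5 was most like Scap (0.07), Bcl2l13 (0.08) and Zdhhc13 (0.08), and Fzd7 most like Nfia (0.06), Lsm11 (0.07) and Mpp6 (0.08). Lrp5 was most like Pank2 (0.08), Mfsd1 (0.08) and Myrf (0.08), and Lrp6 most like Ptprg (0.05), Atf6 (0.06) and Prkaa2 (0.08). For the 4 receptors the median difference over all genes ran from 0.45 to 0.78. Ptprg was at 42.2 ± 10.03 CPM in CD24Mid and 45.5 ± 5.42 in CD24Neg, with the same wide CD24Mid spread as Lrp6.

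Other genes of the pathway were read from 5 lists of 81 genes in all, of which 45 could be tested: 24 had higher counts in CD24Mid, 10 in CD24Neg and 11 failed the test, with a median log2 fold change of 0.49. The share called was 75.6%, beside the 69.8% of all genes. By direction, 35.5% of all genes were called as higher in CD24Mid and 34.3% as higher in CD24Neg. The counts of each list below stand beside these shares. In the order of the lists below, the share called of the genes tested was 100%, 62.5%, 100%, 90.9% and 61.1%.

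Of the 9 genes for R-spondins, their receptors and the removal of Frizzled from the membrane, all 4 that could be tested were higher in CD24Mid. Lgr5, an R-spondin receptor and stem cell marker, had a log2 fold change of 3.93 ± 0.28, and its relative Lgr4 one of 0.65 ± 0.11. Znrf3 and Rnf43, the ubiquitin ligases that take Frizzled and Lrp6 off the surface, had log2 fold changes of 2.26 ± 0.15 and 0.75 ± 0.11. Rnf43 went from 94.8 ± 7.61 CPM in CD24Mid to 56.5 ± 6.60 in CD24Neg, and Znrf3 from 24.7 ± 3.14 to 5.21 ± 0.742. The R-spondin ligands themselves were near absent: Rspo1, Rspo2 and Rspo3 had 0 reads in all libraries and Rspo4 had 1.

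Among 22 genes for Wnt ligands, the Norrin ligand and Wnt secretion, 8 could be tested, of which 3 were called toward CD24Mid, 2 toward CD24Neg and 3 neither way. Wnt3, a ligand of the crypt, had 296 reads in CD24Mid and 8 in CD24Neg (log2 fold change 3.92 ± 0.46, and 4.56 without CD24Neg replicate 8), and Wls, the carrier that Wnt proteins need to leave the cell, had a log2 fold change of 1.78 ± 0.20. Wnt9b was called as higher in CD24Mid at 1.32 ± 0.45 (edgeR adjusted p = 0.0221), a call lost at 0.91 (edgeR adjusted p = 0.146) without CD24Neg replicates 2 and 8, and lost without CD24Neg replicate 2, 6 or 8 or CD24Mid replicate 3 or 5 alone, with edgeR adjusted p of 0.0501 to 0.0574. Wnt6 and Wnt4 were higher in CD24Neg, at -3.08 ± 0.31 and -2.77 ± 0.34. All of these ligands were low, at no more than 3.87 CPM in their higher group.

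Secreted antagonists were sparse, with 4 of 15 genes tested. Sfrp5, a secreted protein with a Frizzled-like domain that binds Wnt, was higher in CD24Mid at 4.58 ± 0.32, and Kremen1, a Dickkopf receptor that removes Lrp6, at 0.37 ± 0.11. Notum, an enzyme that strips the lipid from Wnt, was higher in CD24Neg with 65 reads against 4 (a CD24Neg over CD24Mid ratio of 37.5, 95% exact interval 14.0 to 142, for counting error). Kremen2 was called as higher in CD24Neg at -0.80 ± 0.32 (edgeR adjusted p = 0.0435), a call that ended under upper-quartile scaling (edgeR adjusted p = 0.125) and turned to 0.13 with unscaled totals (edgeR adjusted p = 0.697). It also ended without CD24Neg replicate 2, 4 or 6 or CD24Mid replicate 3, 5 or 7, with edgeR adjusted p of 0.0565 to 0.135.

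Of 16 other Frizzled-class proteins, Wnt receptors and their partners, 11 could be tested and 9 were higher in CD24Mid. The largest log2 fold changes were those of Smo, the Frizzled-class protein of Hedgehog signalling (3.76 ± 0.20), and of the planar cell polarity and Wnt receptor genes Vangl2 (3.73 ± 0.40), Celsr2 (3.58 ± 0.22) and Ptk7 (3.45 ± 0.20). Celsr3, a further planar cell polarity gene, was higher in CD24Neg at -1.53 ± 0.23. Tspan12, a membrane partner of Fzd4 in Norrin signalling, is named here after its values were seen: it was higher in CD24Mid at 2.39 ± 0.19, opposite to Fzd4, and Ndp, the gene for Norrin, had 0 reads in all libraries. Fzd9 had 14 reads in CD24Mid and 3 in CD24Neg, and Fzd10 had 0 reads.

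Among 19 genes for the proteins that act just inside the membrane and for receptor folding, 18 could be tested, with 6 called toward CD24Mid, 5 toward CD24Neg and 7 neither way. Axin2, both scaffold and Wnt target, had a log2 fold change of 1.83 ± 0.20, the kinase Csnk1e 1.52 ± 0.17, Mesd, the chaperone that folds Lrp5 and Lrp6, 1.09 ± 0.11, and Amer1 0.96 ± 0.15. Mesd went from 48.1 ± 5.19 CPM in CD24Mid to 22.6 ± 0.872 in CD24Neg.

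Dvl1, a Dishevelled gene, was higher in CD24Neg at -1.72 ± 0.15, and Caprin2, which binds Lrp5 and Lrp6, at -1.31 ± 0.12. The other Dishevelled genes, named here after their values were seen, did not follow Dvl1. Dvl2 was called as higher in CD24Mid at 0.34 ± 0.13 (edgeR adjusted p = 0.0384), with overlapping groups. It was the nearest to the threshold of the 6 genes of this list called that way. Without CD24Mid replicate 1, 3 or 5 the list had 5 such calls, and without any other 1 library it had 6. Dvl3 did not pass, at -0.10 ± 0.09 (edgeR adjusted p = 0.362). Gsk3a, a kinase of the beta-catenin destruction complex, was called at -0.65 ± 0.12 and Csnk1g3, a kinase of the Lrp6 tail, at -0.43 ± 0.11. Gsk3a turned to 0.29 with unscaled totals and was no longer called, at -0.13, with totals without mitochondrial genes. Csnk1g3 turned to 0.51 and 0.09 under these scalings and was no longer called, at -0.20, with the upper quartile.

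**Figure D5:**
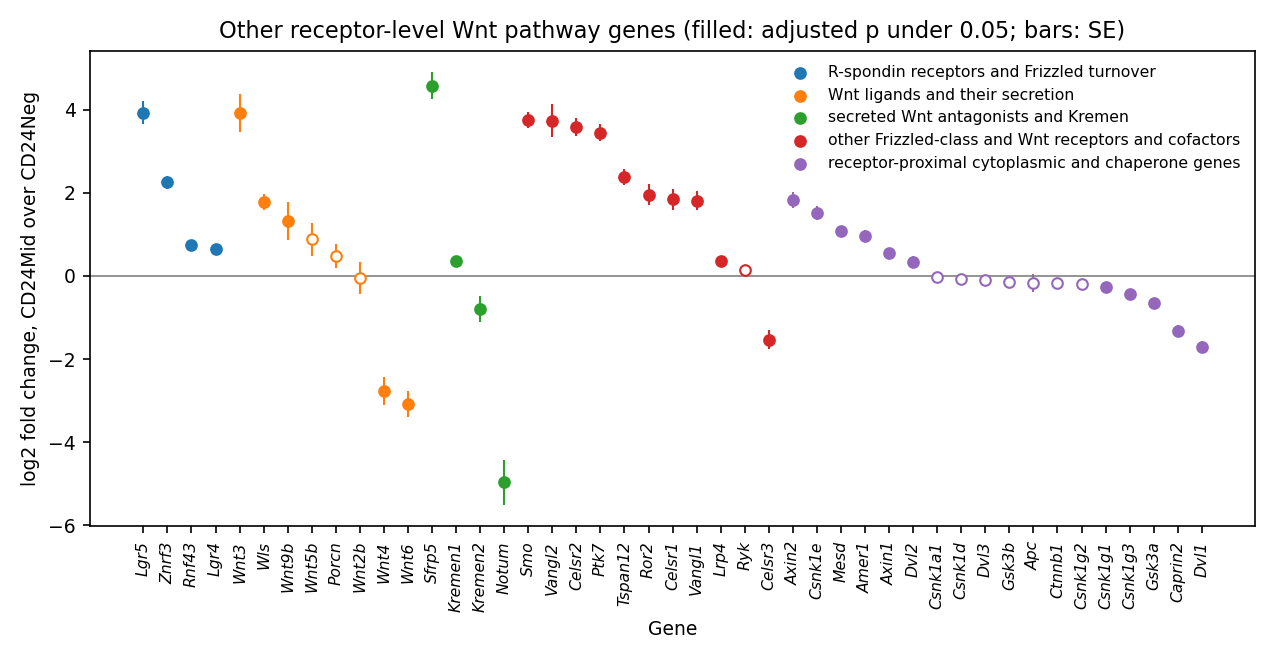
Log2 fold change (CD24Mid over CD24Neg) ± SE of the tested genes of the 5 pathway lists, with filled points for genes that passed the edgeR test at an adjusted p of 0.05 and open points for those that did not. The 4 R-spondin receptor and turnover genes all lie above 0, while the cytoplasmic genes lie on both sides of 0.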

How the data were processed

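Libraries were made from total RNA with the TruSeq RNA kit and reads were aligned with Bowtie 0.12.8 to NCBIM37, per the labels' protocols and the submitters' processing notes. The annotation release, strand setting and MMSEQ version were not given in the sources used here. The authors deposited, per gene and library, a count of reads matching that gene alone, an effective length, and an expression estimate read here as a natural log, since it gives back the deposited counts. The number of mapped fragments was 12401668 to 20445879, per the file headers, of which 89.1% to 92.6% were gene-unique. A count of 0 allows up to 3 reads, 0.121 to 0.38 CPM across libraries. No molecular identifiers are stated, so reads may include PCR copies.

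Counts were fitted with edgeR 4.0.16 in R 4.3.3 (TMM, filterByExpr, robust quasi-likelihood, group alone, Benjamini-Hochberg over 12840 genes). The script was tested on simulated data. Levels are TMM-scaled CPM per kilobase of median effective length. Ratios added 0.5 to each count and were tested by exact permutation (SciPy 1.17.1). Alternatives used other scalings, DESeq2 1.42.0, limma 3.58.1, no filter, estimated counts from the deposited estimates, and left-out libraries. Where limma was run on the deposited estimates, a library with no estimate for a gene was dropped from that gene's fit.

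All 10 receptors were named. In each pathway list, up to 4 called genes per direction with the largest log2 fold change were named. The receptors and lists were chosen with earlier results of these data known. For the 10 receptors, estimated reads were 98.3% to 105% of unique reads. Symbols were found for 32897 of 37620 gene IDs (87.4%).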

Additional observations from a re-analysis of the deposited data

Results flagged for a closer look

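A library far from the other 3 of its group was looked for in 24 groups of 4 libraries, where chance gives about 1 in 20, and 3 were found, all in CD24Neg. Fzd1 in CD24Neg replicate 8 was at 4.42 CPM, below 5.19 to 5.30 CPM in the other libraries. Fzd3 in CD24Neg replicate 4 was at 0.116 CPM, which is 1 read, with 0 reads in the others. A single read in 1 library of a group always gives such a flag, so the chance rate does not hold for Fzd3. The log2 ratio of Fzd5 to Fzd7 in CD24Neg replicate 2 was 4.59, above 3.92 to 3.96 in the others, and the difference between groups was -0.78 without it.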

How the results depend on the processing

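The counts of 6 receptors higher in CD24Mid and 1 higher in CD24Neg were the same without any 1 library, and with upper-quartile scaling, DESeq2 and estimated counts. There were 8 and 1 with unscaled totals, totals without mitochondrial genes and limma on the deposited estimates, where Fzd8 (1.006, 0.59 and 1.05) and Lrp6 (0.85, 0.42 and 0.78) passed as higher in CD24Mid, and 7 and 1 with no filter, through Fzd3. Lrp6 also turned positive with upper-quartile scaling (0.12), no filter (0.0047) and without CD24Mid replicate 3 (0.018), with -0.21 to 0.018 over the left-out libraries. Fzd8 turned negative without CD24Mid replicate 1 (-0.011) or CD24Neg replicate 8 (-0.042), with -0.042 to 0.27 over the left-out libraries, and to -0.075 without CD24Neg replicates 2 and 8, an alternative chosen after the data were seen. The cause was not tested. The difference in Lrp5 to Lrp6 ratio ran from 0.48 to 0.68 and that in Fzd5 to Fzd7 ratio from -1.03 to -0.78 with 1 library left out, each at p = 0.0571 (exact permutation), the smallest that 3 against 4 allows. Pathway genes were called 24 times toward CD24Mid and 10 times toward CD24Neg. With unscaled totals these were 37 and 6, with totals without mitochondrial genes 32 and 6, and with limma 35 and 6. Of all genes called under these settings, 84.4%, 73.1% and 84.2% were higher in CD24Mid, against 50.8% in the main fit. With 1 library left out the pathway counts ran from 22 to 25 and from 8 to 9. The Fzd5 share of CD24Mid was then 72.6% to 74.5% and that of CD24Neg 76.7% to 79.3%. No paired analysis was made. The groups share no replicate number, and whether consecutive numbers (1 and 2, 3 and 4) come from the same mice or the same sort is not stated in the labels. Some marker sums are high or low in consecutive numbers. Paneth markers are highest in CD24Mid replicate 3 (221 CPM) and CD24Neg replicate 4 (272 CPM), with no shared order below that. T and NK lymphocyte markers ran in the same order in both groups. From highest to lowest they were at 18.0, 17.2, 7.99 and 6.46 CPM in CD24Mid replicates 1, 7, 5 and 3. In CD24Neg replicates 2, 8, 6 and 4 they were at 521, 391.9, 84.0 and 29.9 CPM. Stem cell markers also shared an order, at 3885, 3802, 3450 and 2936 CPM in CD24Mid replicates 3, 7, 5 and 1. In CD24Neg replicates 4, 8, 6 and 2 the stem cell markers were at 319, 275, 104 and 89.8 CPM. The effect of pairing consecutive numbers on the results was not tested. Depth limits Fzd2 in CD24Neg and Fzd3 in both groups, which had 0 to 7 reads per library.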
